A study of Mus musculus with 16 samples.

Results

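Rab GTPases are the small membrane-bound switches that give each vesicle compartment of a cell its identity. They were taken here as every protein-coding row of the count table whose GENCODE vM21 symbol is Rab followed by a number and, where there is one, a single letter, which gave 59 of 39057 rows. Of these, 44 had enough reads to be tested and 15 did not. The study asked how human *APOE* genotype alters brain endothelial cells in vitro. Poly-A RNA was sequenced from 16 primary cultures of cortical brain endothelial cells, 8 *APOE3* and 8 *APOE4*, each with 4 males and 4 females. All cells came from targeted replacement mice aged 21 to 28 days, in which human *APOE* is expressed from the endogenous mouse promoter, and there was no group with mouse Apoe. By the series' design text each culture was an isolation from a different animal, and it was selected in 8 µg/ml puromycin, was not subcultured and received no other treatment. p-Values therefore measure the spread between animals.

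A Rab is attached to a membrane by prenylation of its C-terminus, is switched on by an exchange factor that loads GTP, and is switched off by a GTPase-activating protein. In its GTP form it recruits effectors such as tethers, motors and lipid kinases, and GDP dissociation inhibitors carry the inactive form back through the cytosol. Endothelial cells depend on this traffic for transcytosis, for recycling of junction proteins and integrins, and for Weibel-Palade bodies, the storage granules of von Willebrand factor, to which Rab27a and Rab3d are known to bind.

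The Rab transcripts were at almost the same level in *APOE3* and *APOE4* brain endothelial cells. At an adjusted p under 0.05, 3 of moderate or low level differed, 6.82% of the 44 tested against 12.8% of all genes tested. Rab32, of lysosome-related organelles, and Rab3d, of secretory granules, were 26.5% and 19.1% higher with *APOE4*. Rab6b, a Golgi isoform, fell by 20.1%. With a score of cell cycle genes in the fit, where 0 of all genes passed the test, none of the 3 did. In fits with 1 library omitted, Rab32 passed in 16 of 16, Rab3d in 8 and Rab6b in 5. None of the 12 Rabs with a mean of at least 100 CPM (reads scaled to library size) in *APOE3* cultures passed the test. Of the 2169 genes at such levels, 20.5% passed. Estimates of the 12 Rabs lay between -0.07 and 0.04 on the log2 scale. Summed over all 59 genes, Rab transcripts were 2948 ± 44.2 CPM (SD, n = 8) in *APOE3* and 2951 ± 49.8 CPM (SD, n = 8) in *APOE4* cultures.

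Total counts per library were 12717847 to 18624417, no pair of libraries was identical, and the lowest Pearson r of log2 CPM between libraries was 0.979. Human *APOE* transcripts were found in every library, at 1003 to 1425 CPM in *APOE3* and 609 to 1013 CPM in *APOE4* cultures. The 15 brain endothelial markers summed to 15522 to 16589 and 15172 to 16771 CPM, and 0 of them were called. Their means ran from Mfsd2a, at 3.46 and 3.36 CPM, to Pecam1, at 3624 and 3646 CPM. Other cell types were low. The 10 pericyte and smooth muscle markers summed to 73.4 to 132.9 and 79.3 to 123.4 CPM. Most of this was Acta2, with means of 83.8 and 80.3 CPM. The 6 fibroblast markers summed to 12.5 to 60.5 and 8.49 to 77.1 CPM. Of the microglia and macrophage markers, P2ry12 was at 0 and Cx3cr1 at no more than 3 counts in every library. The 6 astrocyte markers summed to at most 4.16 and the 6 oligodendrocyte markers to at most 1.97 CPM in any library, with Gjb6 and Olig2 at 0. The test covered 6 of the 10 pericyte and smooth muscle, 3 of 6 fibroblast and 1 of 6 astrocyte markers. It also covered 2 of 8 microglia and macrophage, 1 of 6 oligodendrocyte and 2 of 6 neuron markers. None of those tested was called, and the others had too few reads to be tested. A list of 40 cell cycle genes moved with genotype: all 40 were higher and 35 called higher with *APOE4*, and their mean log2 CPM was 5.00 to 6.00 in *APOE3* and 5.72 to 6.48 in *APOE4* cultures. In bulk cultures, fewer cells of a kind and less RNA per cell cannot be told apart.

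Levels between genes were compared as RPKM, the CPM per kilobase of the gene's exons. The 10 highest Rabs made up 67.8% of the summed Rab RPKM. Rab5c of early endosomes led with 120.7 ± 4.64 RPKM (SD, n = 8) in *APOE3* and 124.1 ± 6.11 in *APOE4* cultures, and Rab7 of late endosomes followed with 111.0 ± 4.14 and 113.9 ± 2.60. The ranges of these 2 over the 16 libraries overlapped, 115.8 to 134.6 against 105.8 to 117.5 RPKM. Rab1b came next at 85.9 ± 4.53 and 86.1 ± 5.07 RPKM and Rab2a at 62.4 ± 1.22 and 62.8 ± 1.01 RPKM, both of the route between endoplasmic reticulum and Golgi. Rab6a, Rab1a, Rab11a, Rab35, Rab10 and Rab12 followed, with means between 31.0 and 44.2 RPKM in the *APOE3* cultures. The lowest tested Rab was Rab36, a Golgi Rab with a mean of 0.141 RPKM, so the 44 tested Rabs spanned from 0.141 to 122.4 RPKM. By compartment, ER and Golgi Rabs held 30.6% of the summed Rab RPKM in *APOE3* cultures, early endosome Rabs 23.9%, late endosome and lysosome Rabs 18.1%, recycling endosome Rabs 12.4% and Rabs of transport to the cell surface 7.86%. Secretory vesicle Rabs held 3.44%, and lysosome-related organelle and cilium Rabs 1.84% and 1.85%.

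**Figure D1:**
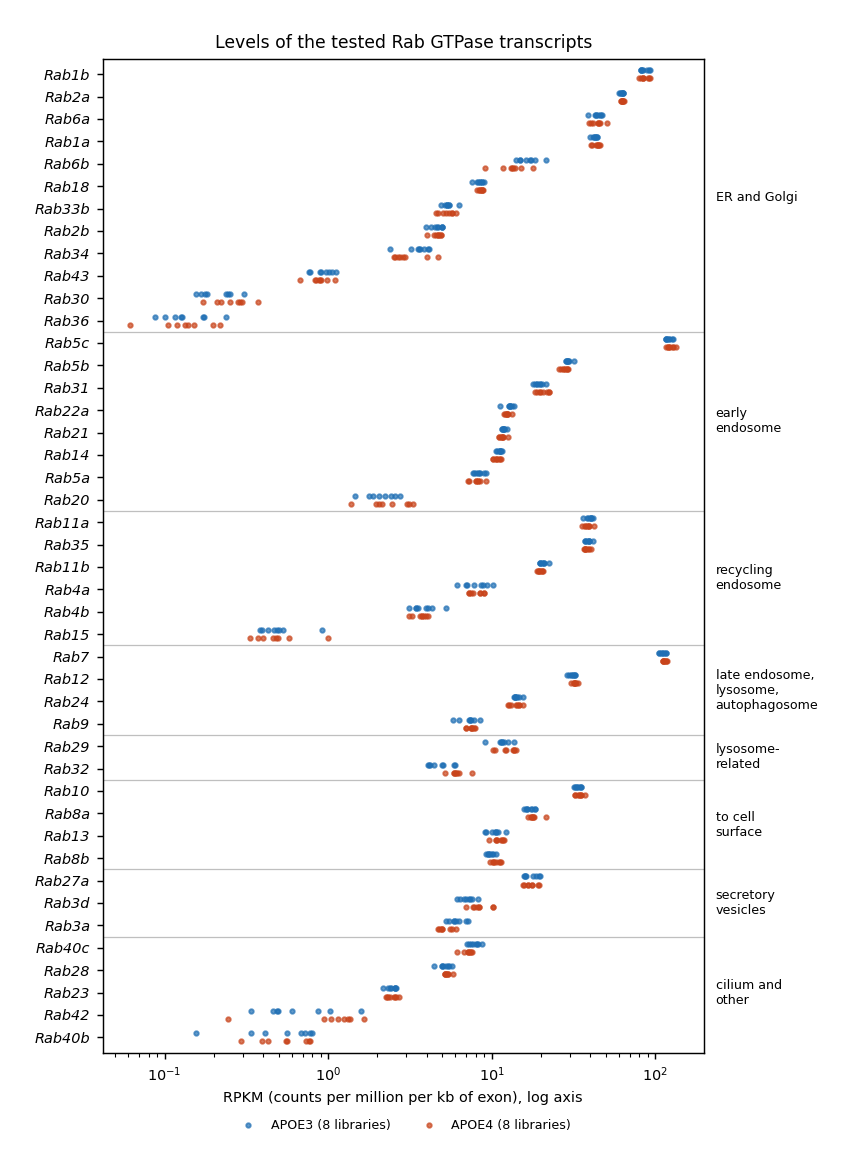
Each point is 1 library, with RPKM on a log axis, for the 44 tested Rab transcripts grouped by compartment, *APOE3* in blue and *APOE4* in red (8 libraries each). Levels span 0.141 (Rab36) to 122.4 RPKM (Rab5c) in the mean, and the clouds of the 2 genotypes overlap for every transcript.

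With edgeR's quasi-likelihood test and Benjamini-Hochberg adjustment over 12481 genes, 3 of the 44 Rabs (6.82%) had an adjusted p under 0.05, against 12.8% of all genes tested. Rab32 and Rab3d were the 2 that rose, beside 6.71% of all genes, and Rab6b was the 1 that fell, beside 6.09%. At an unadjusted p under 0.05 there were 7 Rabs (15.9%), against 29% of all genes. In no Rab did the 2 genotypes separate without overlap, which 0.625% of all genes did. Estimates were split evenly, with 23 Rabs higher and 21 lower with *APOE4*, a split that ran from 21 and 23 to 24 and 20 under the other settings that kept all 44. The median size of the log2 fold change (log2FC, *APOE4* against *APOE3*) was 0.0486 for the Rabs and 0.0890 for all genes, and the median standard error was 0.0531 and 0.0657. For 27 Rabs the 95% interval lay within ± 0.2 on the log2 scale. For the 12 Rabs of at least 100 CPM the intervals together ran from -9.17% to 8.02%, while 20.5% of the 2169 genes at such levels were called.

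**Figure D2:**
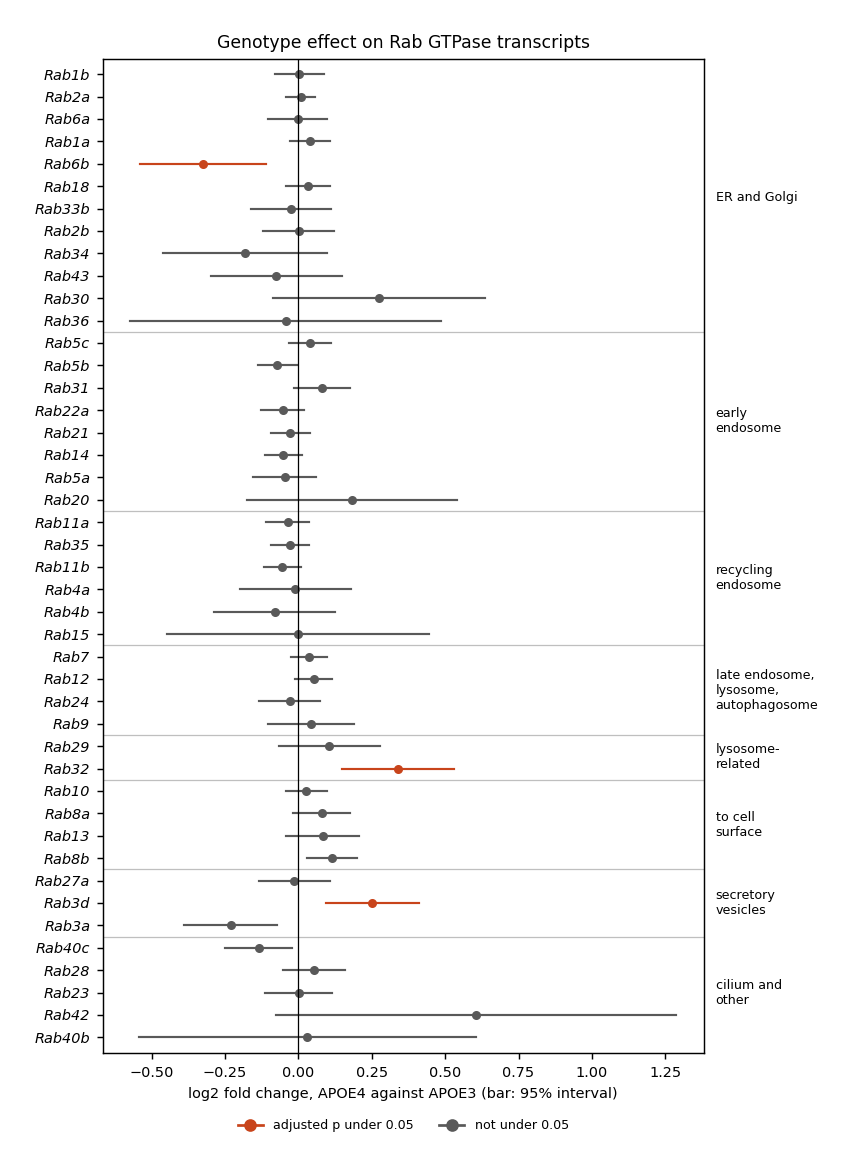
Points are log2FC values of *APOE4* against *APOE3* and bars their 95% intervals, for the 44 tested Rab transcripts grouped by compartment in order of level, with red for an adjusted p under 0.05. Rab32 (0.34) and Rab3d (0.25) lie to the right and Rab6b (-0.32) to the left, while the 12 Rabs of at least 100 CPM lie between -0.07 and 0.04.

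Among the 14 Rabs of the endoplasmic reticulum and Golgi, 12 were tested, 6 were higher and 6 lower, and their median log2FC was -0.0007. Rab1b and Rab2a, which carry cargo from the endoplasmic reticulum into and through the Golgi, had log2FC values of 0.0039 (SE 0.0400) and 0.0087 (SE 0.0239). Rab2a was the steadiest Rab of all, with a coefficient of variation of 1.96% in *APOE3* and 1.61% in *APOE4* cultures. Rab6a, the widely expressed isoform that drives vesicles from the Golgi, was at 145.4, 164.8 and 176.1 CPM (lowest, median and highest) in *APOE3* and at 146.5, 166.6 and 189.7 CPM in *APOE4* cultures. Its interval was -0.10 to 0.10 on the log2 scale.

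Rab6b (ENSMUSG00000032549.7, mm10 chr9:103111787-103185276, plus strand), the Rab6 isoform best known from neurons, was the Golgi Rab that fell. It was at 70.7, 84.1 and 107.9 CPM in *APOE3* and at 45.5, 67.7 and 89.8 CPM in *APOE4* cultures. Of the *APOE4* cultures, 6 lay below every *APOE3* culture, while replicates 39 and 43 lay among them. The log2FC was -0.32 (SE 0.103, adjusted p = 0.0432, 95% interval -0.54 to -0.11). Of 16 fits with 1 library omitted, 5 called Rab6b, with adjusted p from 0.0116 to 0.0977. Leaving out *APOE3* replicate 25, 26, 30, 32 or 33, or *APOE4* replicate 35, 36, 37, 38, 40 or 41, each ended it. With the cell cycle score in the fit, where 0 of all 12481 genes were called, the estimate was -0.06 (adjusted p = 0.931). The part of neurons in this difference was not tested. Their marker sum, mostly Tubb3, was 8.58 to 12.4 CPM in *APOE3* and 10.7 to 14.8 CPM in *APOE4* cultures, and Snap25 had at most 2 counts in any library.

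All 8 early endosome Rabs were tested and 0 were called, 3 higher and 5 lower. Rab5 directs the fusion of incoming endocytic vesicles. Its most abundant form, Rab5c, was at 255.0, 261.9 and 281.7 CPM in *APOE3* and at 254.1, 269.2 and 295.2 CPM in *APOE4* cultures (log2FC 0.04, SE 0.0345, adjusted p = 0.485). Rab5b had -0.07 (SE 0.0324, adjusted p = 0.148) with 7 of 8 *APOE4* cultures below the *APOE3* median, and Rab5a -0.05 (SE 0.0517). The summed level of the compartment was 215.7 ± 4.66 RPKM (SD, n = 8) in *APOE3* and 217.7 ± 5.67 RPKM in *APOE4* cultures, a log2 difference of 0.01 within the pooled SD of 0.0346.

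The 6 tested of 8 recycling endosome Rabs all had estimates below 0, from -0.08 to -0.0010, and 0 were called. Rab15 came out above 0 with DESeq2's Wald test or with sex in the fit, and 3 of the 6 were above 0 with the cell cycle score in the fit. Rab11a, which returns receptors from the recycling endosome to the surface, was at 108.8, 120.0 and 124.3 CPM in *APOE3* and at 106.4, 115.3 and 126.0 CPM in *APOE4* cultures. Rab35, which acts in fast recycling at the plasma membrane, was at 104.5, 110.0 and 118.1 CPM and at 103.6, 105.7 and 114.3 CPM. Their log2FC values were -0.04 (SE 0.0349, adjusted p = 0.532) and -0.03 (SE 0.0305, adjusted p = 0.590). Of the 8 *APOE4* cultures, 7 lay below the *APOE3* median for Rab11a and 6 for Rab35, while the ranges of both overlapped almost fully. Rab15, another Rab linked to Weibel-Palade bodies, was at 24 to 63 counts. Its values in *APOE3* replicate 33 and *APOE4* replicate 35 stood above the rest at 4.22 and 4.61 CPM. The summed level of the compartment was 111.5 ± 3.47 and 108.8 ± 2.39 RPKM (SD, n = 8 each). The log2 difference was -0.0361 within a pooled SD of 0.0392 on RPKM, and -0.0395 beyond a pooled SD of 0.0334 on CPM.

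Of the 8 Rabs of late endosomes, lysosomes and autophagosomes, 4 were tested and 0 called. Rab7, the Rab of late endosome to lysosome fusion, was at 276.2, 288.5 and 304.0 CPM in *APOE3* and at 289.4, 296.1 and 306.6 CPM in *APOE4* cultures, where every culture was above the *APOE3* median. Its log2FC was 0.04 (SE 0.0291, adjusted p = 0.426). Rab12, which directs receptors to degradation, had 0.05 (SE 0.0300, adjusted p = 0.264). The summed level was 163.6 ± 5.46 and 167.6 ± 2.94 RPKM (SD, n = 8 each), a log2 difference of 0.03 against a pooled SD of 0.0384.

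Rab32 (ENSMUSG00000019832.4, mm10 chr10:10545002-10558265, minus strand) was 1 of the 3 Rabs of lysosome-related organelles, where it sorts cargo to organelles such as melanosomes, and it is also known from mitochondria. It was at 9.53, 10.98 and 14.002 CPM in *APOE3* and at 12.1, 14.1 and 17.7 CPM in *APOE4* cultures. All 8 *APOE4* cultures were above the *APOE3* median and 5 of them above every *APOE3* culture, with *APOE3* replicates 26 and 32 inside the *APOE4* range. The log2FC was 0.34 (SE 0.0916, adjusted p = 0.0217, 95% interval 0.15 to 0.53). Each of the 16 fits with 1 library omitted called Rab32, with adjusted p from 0.0140 to 0.0489. With the cell cycle score in the fit, where 0 of all 12481 genes were called, the estimate was 0.17 (SE 0.119, adjusted p = 0.775). Rab29, which recruits the kinase Lrrk2 to membranes, was at 13.3, 17.0 and 20.1 CPM in *APOE3* and at 14.9, 18.9 and 20.8 CPM in *APOE4* cultures (log2FC 0.11, SE 0.0822, adjusted p = 0.421). Rab38, the closest relative of Rab32, had at most 9 counts in a library and was not tested. The summed level of the 3 Rabs was 16.6 ± 1.74 RPKM in *APOE3* and 18.8 ± 1.97 RPKM in *APOE4* cultures (SD, n = 8 each). The log2 difference of this sum, which includes the called Rab32, was 0.18, above the pooled SD of 0.154. Its ranges of 13.4 to 18.8 and 16.2 to 21.9 RPKM overlapped.

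All 4 Rabs of transport to the cell surface had estimates above 0, from 0.03 to 0.11, and 0 were called. With the cell cycle score in the fit their median went from 0.08 to 0.02, with Rab8b at 0.03, Rab13 at 0.01, Rab10 at 0.05 and Rab8a at -0.02. Rab10, which moves transporters such as GLUT4 to the surface, was at 111.7, 117.8 and 124.4 CPM in *APOE3* and at 112.8, 121.0 and 130.6 CPM in *APOE4* cultures. Its log2FC was 0.03 (SE 0.0338, adjusted p = 0.636), and that of Rab8a, of Golgi to surface traffic, 0.08 (SE 0.0470, adjusted p = 0.280). Rab8b, its paralog, came nearest to a call with 0.11 (SE 0.0404, adjusted p = 0.0670), at 43.5, 46.1 and 50.4 CPM against 46.2, 49.9 and 53.7 CPM, and every *APOE4* culture was above the *APOE3* median. Rab13, a Rab of tight junction assembly, had 0.08 (SE 0.0603, adjusted p = 0.388). The summed level was 70.9 ± 2.66 RPKM (SD, n = 8) in *APOE3* and 73.9 ± 2.05 RPKM in *APOE4* cultures, and the log2 difference of 0.06 was above the pooled SD of 0.0477 while the ranges of 66.8 to 75.4 and 70.7 to 76.7 RPKM overlapped.

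The secretory vesicle Rabs differed in direction. Of 8 genes, 3 were tested. Rab27a, which docks Weibel-Palade bodies and other granules, was at 61.0, 66.3 and 76.2 CPM in *APOE3* and at 60.2, 66.5 and 75.1 CPM in *APOE4* cultures (log2FC -0.01, SE 0.0574, 95% interval -0.13 to 0.11). Rab3d (ENSMUSG00000019066.13, mm10 chr9:21907491-21918192, minus strand), a Rab of regulated secretion on mature granules, was at 25.6, 29.9 and 34.6 CPM in *APOE3* and at 29.1, 34.6 and 42.7 CPM in *APOE4* cultures. Replicates 35 and 41 of *APOE4* were the highest, and replicate 43 lay among the lower *APOE3* cultures. The log2FC was 0.25 (SE 0.0764, adjusted p = 0.0355, 95% interval 0.09 to 0.41). Of the 16 fits with 1 library omitted, 8 called it, with adjusted p from 0.0145 to 0.0843, and the call was lost without *APOE3* replicate 25, 26, 28, 30 or 33 or *APOE4* replicate 35, 39 or 41. With the cell cycle score in the fit, where 0 of all 12481 genes were called, its estimate was 0.04 (adjusted p = 0.949).

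Rab3a (ENSMUSG00000031840.12, mm10 chr8:70754679-70758677, plus strand), the synaptic vesicle member of the same family, had an estimate in the other direction. It was at 11.7, 13.3 and 15.96 CPM in *APOE3* and at 10.5, 11.1 and 13.5 CPM in *APOE4* cultures, and 7 of 8 *APOE4* cultures were below the *APOE3* median. The log2FC was -0.23 (SE 0.0761, adjusted p = 0.0505), just outside the threshold. It passed with DESeq2's size factors (adjusted p = 0.0493), with at least 10 counts in every library (0.0470), with DESeq2's Wald test (0.0336), and without *APOE3* replicate 31 or 32 or *APOE4* replicate 36 or 37. With the cell cycle score in the fit the estimate was -0.04. Rab3b had at most 29 and Rab3c at most 1 count in a library, and both were under the filter.

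**Figure D3:**
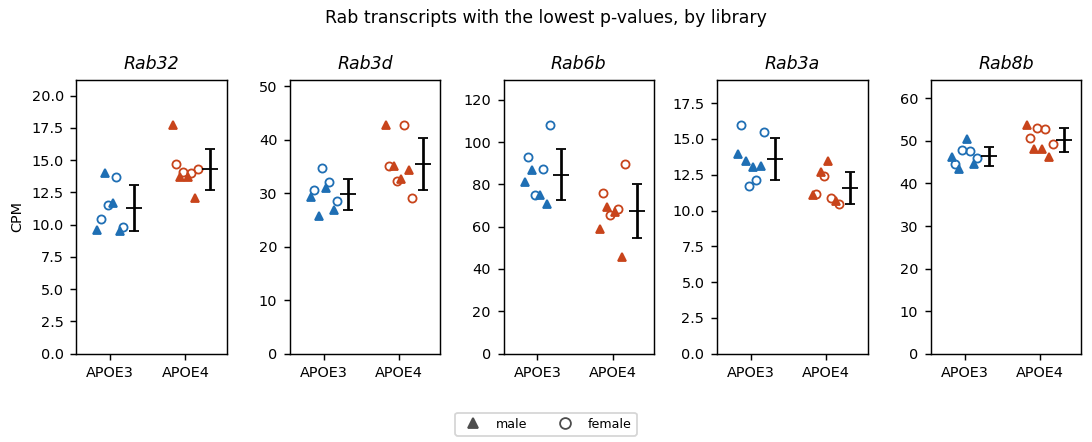
CPM of the 5 Rab transcripts with the lowest p-values in each library (triangles male, circles female), with mean and SD of 8 libraries at the side of each genotype and axes from 0. Rab32, Rab3d and Rab8b sit higher with *APOE4* and Rab6b and Rab3a lower, and in each the 2 genotypes share part of their range.

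The sequence upstream of the start is shown for the 2 Rabs that rose and for Rab3a, to set the paralogs Rab3d and Rab3a side by side. The sequences are from RefSeq, build GRCm38.p6, each from 5′ to 3′ on the gene's strand and ending at the start annotated in GENCODE. Capitals mark the GC box GGGCGG and the CCAAT box, each searched as these letters on both strands. They lie at chr10:10558266-10558457 on the minus strand for Rab32, at chr9:21918193-21918433 on the minus strand for Rab3d and at chr8:70754453-70754678 on the plus strand for Rab3a.
Rab32: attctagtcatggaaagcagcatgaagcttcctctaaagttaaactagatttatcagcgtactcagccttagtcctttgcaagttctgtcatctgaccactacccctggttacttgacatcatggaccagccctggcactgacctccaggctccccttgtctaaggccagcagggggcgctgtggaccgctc
Rab3d: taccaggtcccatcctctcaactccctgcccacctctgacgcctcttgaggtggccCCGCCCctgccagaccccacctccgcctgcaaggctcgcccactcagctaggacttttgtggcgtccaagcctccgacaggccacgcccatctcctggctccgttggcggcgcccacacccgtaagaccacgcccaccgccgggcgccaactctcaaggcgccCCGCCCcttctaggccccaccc
Rab3a: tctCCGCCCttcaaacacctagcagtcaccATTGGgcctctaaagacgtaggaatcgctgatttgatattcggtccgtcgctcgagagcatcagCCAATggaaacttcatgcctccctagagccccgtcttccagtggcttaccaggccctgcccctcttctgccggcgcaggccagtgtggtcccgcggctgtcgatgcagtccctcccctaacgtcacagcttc
Rab32's stretch, with 51.6% G and C, held none of the motifs searched, and its whole window from 250 bases before to 50 after the start held 1 ETS motif. The Rab3d stretch, with 69.3%, held 2 GC boxes and no CCAAT box, and the Rab3a stretch, with 58.8%, 1 GC box and 2 CCAAT boxes. Their whole windows at these starts held 3 GC boxes for Rab3d, and 2 GC boxes and 2 CCAAT boxes for Rab3a. The window of another Rab3a start, chr8:70754852-70755151, held 0 of the motifs searched. Such windows were matched for 48 of the 59 Rabs, some with several starts, which gave 60 windows. A GC box was present in 68.3% of them and in 35.7% of all 32851 windows, a CCAAT box in 43.3% and 37.4%, the E-box CACGTG in 10% and 7.15%, the ETS motif CCGGAA in 25% and 14.9%, and the TATA box TATAAA in 6.67% and 13.6%. These are letter matches on either strand, not binding sites. Rab6b's window lies inside its GENCODE transcript, held 1 GC box and is not printed.

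Of the 6 remaining Rabs, of cilium and other functions, 5 were tested and 0 called. Rab40c, part of a ubiquitin ligase, was at 21.9, 24.3 and 26.8 CPM in *APOE3* and at 18.9, 22.4 and 23.5 CPM in *APOE4* cultures. None of the *APOE4* cultures was above the *APOE3* median, and the log2FC was -0.14 (SE 0.0544, adjusted p = 0.105). Rab28, known from cilia and photoreceptors, was above the *APOE3* median in all 8 *APOE4* cultures, with a log2FC of 0.05 (SE 0.0506, adjusted p = 0.536). Among the 44 tested Rabs, the estimate farthest from 0 was that of Rab42, 0.61 (SE 0.327, adjusted p = 0.229). It was at 3 to 19 counts a library, with coefficients of variation of 56.4% and 37.1%.

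The relation between paralogs was compared within each library as a ratio of RPKM, given as a description, since the members were known to differ. Rab3d to Rab3a was 0.981, 1.10 and 1.57 (lowest, median and highest) in *APOE3* and 1.29, 1.57 and 2.08 in *APOE4* cultures. Of the *APOE4* cultures, 4 lay above every *APOE3* culture. Rab6b to Rab6a was 0.303, 0.379 and 0.454 in *APOE3* and 0.219, 0.307 and 0.351 in *APOE4* cultures, with 4 of the latter below every *APOE3* culture. For Rab8b to Rab8a the means were 0.576 ± 0.0419 and 0.590 ± 0.0398, and for Rab11b to Rab11a 0.521 ± 0.0270 and 0.515 ± 0.0313 (SD, n = 8 each). These 2 ratios differed by less than 1 SD.

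**Figure D4:**
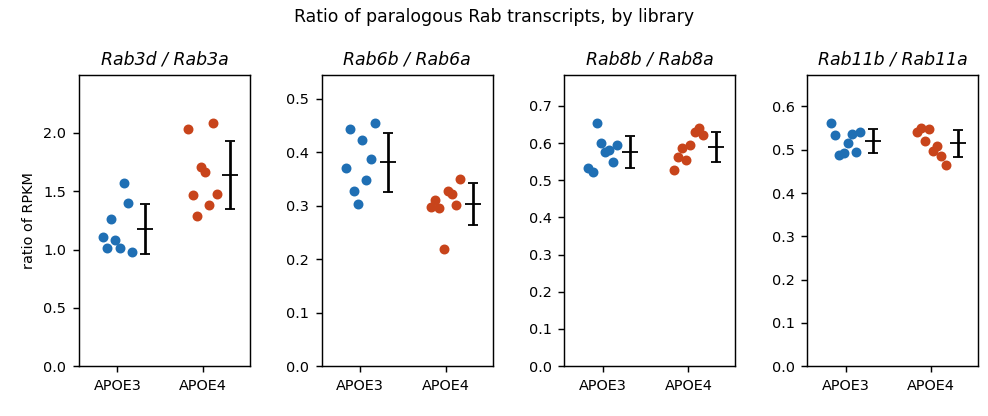
Ratio of the RPKM of 2 paralogs in each library, with mean and SD of 8 libraries at the side of each genotype and axes from 0. Rab3d to Rab3a shifts up (medians 1.10 and 1.57) and Rab6b to Rab6a down (0.379 and 0.307), while Rab8b to Rab8a and Rab11b to Rab11a stay in the same range.

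The 5 Rabs with the lowest p-values differed in how far they rested on single libraries. With 1 library omitted in turn, Rab32 was called in 16 of 16 fits, Rab3d in 8 and Rab6b in 5. Rab3a was called in 4 such fits and Rab8b in 2, without *APOE3* replicate 27 or *APOE4* replicate 38.

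**Figure D5:**
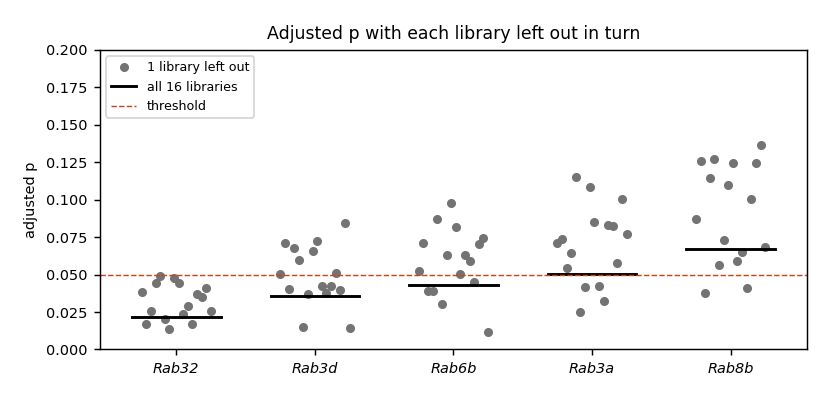
Adjusted p of the 5 Rabs in 16 fits with 1 library omitted (grey points), in the fit of all 16 libraries (black line) and the threshold of 0.05 (dashed). All points of Rab32 lie under the threshold, up to 0.0489, while those of Rab3d (0.0145 to 0.0843) and Rab6b (0.0116 to 0.0977) lie on both sides of it.

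Male and female cultures were then compared within 1 fit of 4 groups of 4 libraries. No Rab was called in males (3 at an unadjusted p under 0.05, against 14.2% of all genes) or in females (7, against 19.5%), and 0 genes in all were called in either sex. Rab32 had almost the same estimate in both, 0.35 (SE 0.136) in males and 0.33 (SE 0.136) in females. For Rab3d the estimates were 0.36 (SE 0.107) in males and 0.15 (SE 0.107) in females, and for Rab6b -0.38 (SE 0.127) and -0.28 (SE 0.125). The difference between the sexes' genotype effects had an unadjusted p under 0.05 for 0 Rabs and for 2.76% of all genes. The lowest was that of Rab40c (adjusted p = 0.9999), with -0.03 in males and -0.24 in females. Averaged over genotype, 0 Rabs and 0.0721% of all genes were called between females and males. At an unadjusted p under 0.05 were 3 Rabs, against 4.26% of genes, all higher in females: Rab6b by 0.26, Rab40b by 0.67 and Rab1a by 0.06 on the log2 scale. In all, 29 of the 44 Rabs had the same sign in both sexes, and the share over all genes was not worked out.

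The genes that operate the Rab cycle were taken as 4 lists. Of 8 genes for prenylation and GDP dissociation inhibitors, all were tested and 1 fell (12.5%), beside the 12.8% of all genes. It was Rabac1, a prenylated Rab acceptor, from 130.3 ± 4.93 to 117.1 ± 5.54 CPM (SD, n = 8 each), a log2FC of -0.15 (SE 0.0332, adjusted p = 0.00830). The inhibitor Gdi2 had 0.08 (adjusted p = 0.118). Of 36 tested exchange factors, 4 fell and 0 rose (11.1%), while 6.09% of all genes fell and 6.71% rose. Below 0 were 26 estimates, and the median log2FC was -0.08, against -0.0002 for all genes. The direction of the list was not tested. The 4 that fell were Sbf2 (-0.18, adjusted p = 0.0101), Rin1, an exchange factor for Rab5 (-0.13, adjusted p = 0.0240), Dennd3, for Rab12 (-0.17, adjusted p = 0.0293), and Dennd6b (-0.34, adjusted p = 0.0416). Rin1's call was lost without *APOE3* replicate 26 or 28, Dennd3's without *APOE3* replicate 30 or 33 or *APOE4* replicate 35 or 41, and Dennd6b's in 10 of the 16 fits with 1 library omitted. The subunits of the Rab32 exchange factor, Hps1 and Hps4, had 0.07 (adjusted p = 0.421) and -0.11 (adjusted p = 0.338).

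Of 32 tested GTPase-activating proteins, 2 fell and 1 rose (9.38%), beside 12.8% of all genes called. Tbc1d17, which acts on Rab8, went from 62.7 ± 5.74 to 49.9 ± 3.47 CPM (log2FC -0.33, SE 0.0548, adjusted p = 0.00447), and Tbc1d8 had -0.34 (adjusted p = 0.0131). Tbc1d1, which acts on Rabs of GLUT4 vesicles such as Rab10, rose from 44.2 ± 5.17 to 53.8 ± 5.28 CPM (0.28, SE 0.0699, adjusted p = 0.0148). Both subunits of the GTPase-activating complex of Rab3, Rab3gap1 and Rab3gap2, lay near 0 at 0.02 and 0.01. Of 42 tested effectors and kinases, 2 rose and 1 fell (7.14%), beside the same 12.8% of all genes. Plekhm1, which links Rab7 to the fusion machinery of lysosomes, had -0.16 (SE 0.0345, adjusted p = 0.00824). Kif20a, a mitotic kinesin first described as a Rab6 effector, rose by 0.71 (SE 0.184, adjusted p = 0.0178), and Myo5a, a vesicle motor, by 0.35 (SE 0.105, adjusted p = 0.0334). All 11 regulators lost their calls with the cell cycle score in the fit, where 0 of all 12481 genes were called. The score itself was higher with *APOE4* (mean 6.02 against 5.46), so that fit cannot tell genotype and cell cycle apart. Estimates then were -0.06 for Kif20a, -0.02 for Myo5a, -0.08 for Plekhm1, 0.04 for Tbc1d1, -0.06 for Tbc1d8 and -0.16 for Tbc1d17. Of the others, Dennd3 had 0.02, Dennd6b -0.10, Sbf2 -0.07, Rin1 -0.15 and Rabac1 -0.10. Myo5a was called in 8 of the 16 fits with 1 library omitted, and not without *APOE3* replicate 26, 28, 30 or 33 or *APOE4* replicate 35, 37, 40 or 41. Lrrk2, a kinase that phosphorylates several Rabs, had 0.08 (adjusted p = 0.266).

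The 15 Rabs that were not tested are mostly known from neurons, epithelia or blood cells. The highest count in any library was 29 for Rab3b, 18 for Rab19, 16 for Rab26, 15 for Rab27b, 9 for Rab38 and Rab7b, 7 for Rab25 and Rab33a and 6 for Rab39. The other 6 had 3 counts or fewer in every library: Rab44 (3), Rab37 (2), Rab39b (2), Rab3c (1), Rab9b (1) and Rab17, an epithelial Rab, at 0. Without the filter on low counts the lowest adjusted p among them was 0.224, for Rab27b. Whether differences at such counts could be detected at this depth was not tested.

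Some Rabs share sequence with other genes, so their counts depend on how reads were assigned. Over 40% of the 50-base stretches of the exons were shared for Rab43 (74.5%, with Gm45140), Rab4b (58.1%, mainly with Gm21983), Rab2b (57.0%, with Tox4 and Gm43766 on the opposite strand) and Rab24 (49.6%, with Prelid1 on the opposite strand). For 35 of the 44 tested Rabs the share was 10% or less, and for Rab32, Rab3d, Rab6b and Rab3a it was 0.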

How the data were processed

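The deposited table holds raw read counts per gene, made by the authors and not normalized. The submitters' processing notes name STAR, featureCounts, mm10 and hg38, with no versions, and how they were applied is not given in the sources used here. All columns were mapped to a culture by their labels. Of 39056 mouse identifiers, 38872 were matched to GENCODE vM21, which gave symbols, coordinates and exon lengths. Reads carry no molecular identifiers, so the precision that total counts of 12717847 to 18624417 give covers counting error only.

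Counts were fitted in R 4.3.3 with edgeR 4.0.16 (filterByExpr by genotype, TMM, genotype as the single term, quasi-likelihood F test, Benjamini-Hochberg adjustment over 12481 genes, threshold 0.05). Intervals are 95% intervals from the fit's standard error. The sexes were compared in 1 edgeR fit of 4 groups. Alternatives were DESeq2 1.42.0 (size factors, Wald test), limma 3.58.1 voom with sample quality weights, other filters on low counts, sex or a cell cycle score (mean log2 CPM of 40 genes, prior count 2) as covariate, and each library left out. Scripts were tested on simulated data. Python 3.11.15 was used for the tables and figures.

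The members, the compartment, regulator and marker lists and the tests were chosen with earlier results of these data known. Named were the called Rabs and their tested family members, the 2 with the highest RPKM in each compartment, called regulators, and untested Rabs by their highest count. Rab8b, Rab5a, Rab15, Rab13, Rab42, Rab1a, Rab36, Rab40b, Rab11b and the regulators without a call were named after their values were seen. Replicates are named by the culture number in their label. Some values of the marker and regulator lists are not reported here.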

Additional observations from a re-analysis of the deposited data

Results flagged for a closer look

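In each genotype, the highest and the lowest library of the named Rabs were compared with the nearest other library by Dixon's rule for 8 samples, which chance alone exceeds in about 1 in 20 groups, and 38 groups were examined. A single library stood apart in 3 of them. Rab28 was at 26.4 CPM in *APOE4* replicate 37, and the next library was at 24.5 CPM, a gap of 0.631 of the group's range. Rab5b, an early endosome Rab, was at 133.5 CPM in *APOE3* replicate 33, above the next at 124.0 CPM, a gap of 0.640 of the range. Rab8a was at 100.7 CPM in *APOE4* replicate 35, above the next at 84.5 CPM, a gap of 0.690 of the range. None of these Rabs was called. Without that library the log2 fold change went from 0.08 to 0.04 for Rab8a, from 0.05 to 0.03 for Rab28 and from -0.07 to -0.05 for Rab5b.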

How the results depend on the processing

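Of the 14 genes named for a call, 3 Rabs and 11 regulators, all 14 lost it with the cell cycle score in the fit and 1, Dennd6b, without a filter on low counts (adjusted p = 0.0513), while none lost it under the 5 other settings with all libraries. The Rabs called higher were 0 and those called lower 0 once the cell cycle score entered the fit, where 0 of all genes were called (894 at an unadjusted p under 0.05, 3 of them Rabs). With DESeq2's size factors, at least 10 counts in every library or DESeq2's Wald test, 2 Rabs were called lower, Rab6b and Rab3a. With 1 library left out, 1 to 3 Rabs were called higher and 0 to 2 lower. The cell cycle score changed the sign of 17 of the 44 Rabs, and under the other settings with all libraries 0 to 3 changed sign. Among the genes named by the rule it changed the sign of Rab11a (0.0216), Rab1b (-0.103), Rab29 (-0.0982), Rab2a (-0.00905), Rab5c (-0.0321), Rab6a (0.0701), Rab8a (-0.0179), Dennd3 (0.0186), Kif20a (-0.0611) and Myo5a (-0.017), and limma voom that of Rab1b (-0.00031). The cause was not tested. With 1 library left out, Rab1b ran from -0.0137 to 0.0209, Rab27a from -0.0379 to 0.0124 and Rab6a from -0.0348 to 0.0192. From RPKM to CPM, the log2 difference of each compartment sum moved by less than the spread between libraries, and that of early endosomes, not beyond that spread on either scale, went from 0.0131 to -0.00921. Apart from the cell cycle score, all-gene calls under settings with all libraries ran from 1290 without a filter to 1951 with DESeq2's Wald test, against 1597. No paired analysis was possible because the 2 genotypes share no replicate numbers.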
